A study of Arabidopsis thaliana with 5 samples.

Results

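The serine carboxypeptidase-like (SCPL) genes of Arabidopsis thaliana were set against regions recovered with the transcription factors BLUEJAY (BLJ) and JACKDAW (JKD) from roots. Members were all protein-coding genes on chromosomes 1 to 5 whose symbol is SCPL plus a number, and 49 of 27444 protein-coding genes met that rule. A gene is called near a region below where a row of the BLJ or JKD region list overlaps it or its flanks of 1000 bp. The family was selected on the share of its genes near a region in these same lists, so every value below is a description and none is a test.

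SCPL proteins share the fold and the catalytic serine, aspartate and histidine of serine carboxypeptidases, enzymes that remove the last amino acid of a peptide chain. In plants the family also holds acyltransferases, which use a glucose ester such as sinapoylglucose as the donor and pass the acyl group to malate, choline, anthocyanin or another acceptor. In Arabidopsis the acyltransferases known by function carry numbers below SCPL20, and several of these genes lie side by side in the genome. Sinapate esters made this way absorb ultraviolet light in leaves and store choline in seeds.

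The study mapped the genomic sites of both factors by chromatin immunoprecipitation and sequencing (ChIP-seq) in whole roots of Columbia plants. The groups were 2 libraries from plants expressing BLJ fused to yellow fluorescent protein, labelled as expressed in ground tissue, 2 libraries from plants expressing the JKD fusion, labelled as expressed in ground tissue and the stem cell organizer (QC), and 1 library from wild-type plants without a fusion, all recovered with the same antibody. The labels give neither the promoter that drives each fusion nor the age of the plants. The labelled cells are part of a whole root, and a region does not tell in which of them a gene is expressed. The BLJ list held 24229 regions and the JKD list 21985, each made from both replicates of its factor together. Each region had 2 density values, 1 per replicate in an unstated order. It also had an irreproducible discovery rate (IDR) given by the authors, a measure of disagreement between replicates. Depth per library is unknown, no wild-type regions were analysed here, and no error over replicates exists for any count or share.

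Fewer SCPL genes had a region nearby than other genes of their length. A BLJ region lay near 34 of 49 SCPL genes (69.4%), against 80.8% of all protein-coding genes. A JKD region lay near 31 (63.3%), against 76.8% of all genes. SCPL genes are long, with a median of 3071 bp (1603 to 4622 bp) against 2078 bp for all genes, and longer genes meet a region more often. Among other genes in the same length classes (10 classes of equal size), 88.6% met a BLJ region and 84.8% met a JKD region, which at those shares would be 43.4 and 41.6 of 49 genes. Regions of both factors lay near 27 SCPL genes (55.1%), against 71.2% of all genes and 80.7% of genes of like length. Neither list had a region near 11 SCPL genes (22.4%), against 13.6% of all genes and 7.22% of genes of like length.

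**Figure D1:**
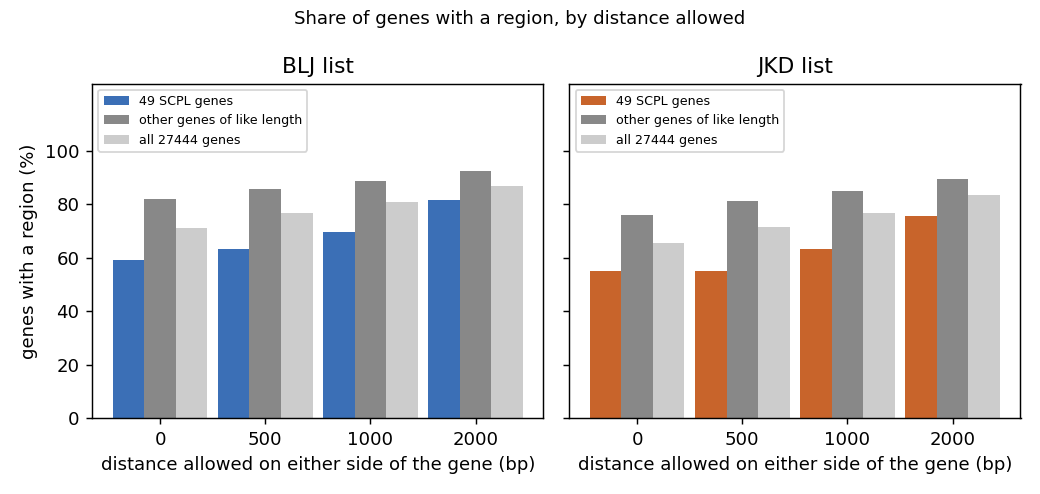
Percent of genes with a BLJ (left) or JKD (right) region, by the distance in bp allowed on either side of the gene, for the 49 SCPL genes, for other genes of like length and for all protein-coding genes. At 1000 bp the SCPL bars stand at 69.4% and 63.3%, below the bars of like length at 88.6% and 84.8%, and they stand lowest of the 3 at each distance.

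For each list, the distance allowed changed the size of the gap and not its direction. Where a region had to overlap the gene itself, 29 SCPL genes had a BLJ region (59.2%, against 71.0% of all genes and 81.8% of genes of like length). For JKD the overlapped SCPL genes numbered 27 (55.1%, against 65.3% and 75.8%). With 2000 bp on either side, BLJ regions lay near 40 SCPL genes (81.6%, against 86.6% and 92.4%) and JKD regions near 37 (75.5%, against 83.5% and 89.5%). The share of genes near neither list did not keep its gap to all genes: with overlap of the gene itself it was 22.4% of SCPL genes, against 22.1% of all genes and 12.4% of genes of like length. Just inside the limit of 1000 bp lay the BLJ regions at SCPL6 (838 bp away) and SCPL16 (729 bp), and the JKD regions at SCPL21 (896 bp) and SCPL31 (888 bp). Just outside it lay the BLJ regions at SCPL23 (1043 bp) and SCPL37 (1275 bp), and the JKD regions at SCPL30 (1010 bp) and SCPL7 (1068 bp).

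The share of sequence covered showed the same order without depending on a single base of overlap. Over the gene and its flanks of 1000 bp, BLJ regions covered a median of 13.5% of an SCPL gene (quartiles 0.0% and 24.9%), against 34.2% for all genes and 37.4% for genes of like length. JKD regions covered a median of 7.94% (quartiles 0.0% and 26.0%), against 25.7% and 28.2%. At least 50% was covered by BLJ regions in 6 SCPL genes (12.2%, against 32.9% of all genes) and by JKD regions in 4 (8.16%, against 25.0%). Cover differed less in the 10000 bp around the genes. At the genes next to them it was below that of all genes, over flanks that can reach into the SCPL gene. In the 10000 bp beyond the flanks on either side, median BLJ cover was 28.3% around SCPL genes and 31.1% around all genes, and median JKD cover was 25.9% and 25.7%. The surroundings of the 11 genes near no region had medians of 31.0% (BLJ) and 26.6% (JKD). Of 72 protein-coding genes directly beside an SCPL gene and not of the family, 55 lay near a BLJ region (76.4%, against 79.2% of genes of their length) and 49 near a JKD region (68.1%, against 75.2%). Median cover of these adjacent genes with their flanks was also below that of all genes, at 22.8% against 34.2% for BLJ and 15.2% against 25.7% for JKD. Their flanks can overlap the SCPL gene, so these values are not separate from those of the family. The adjacent genes had a median length of 1828 bp, and no median cover at like length is available for them.

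**Figure D2:**
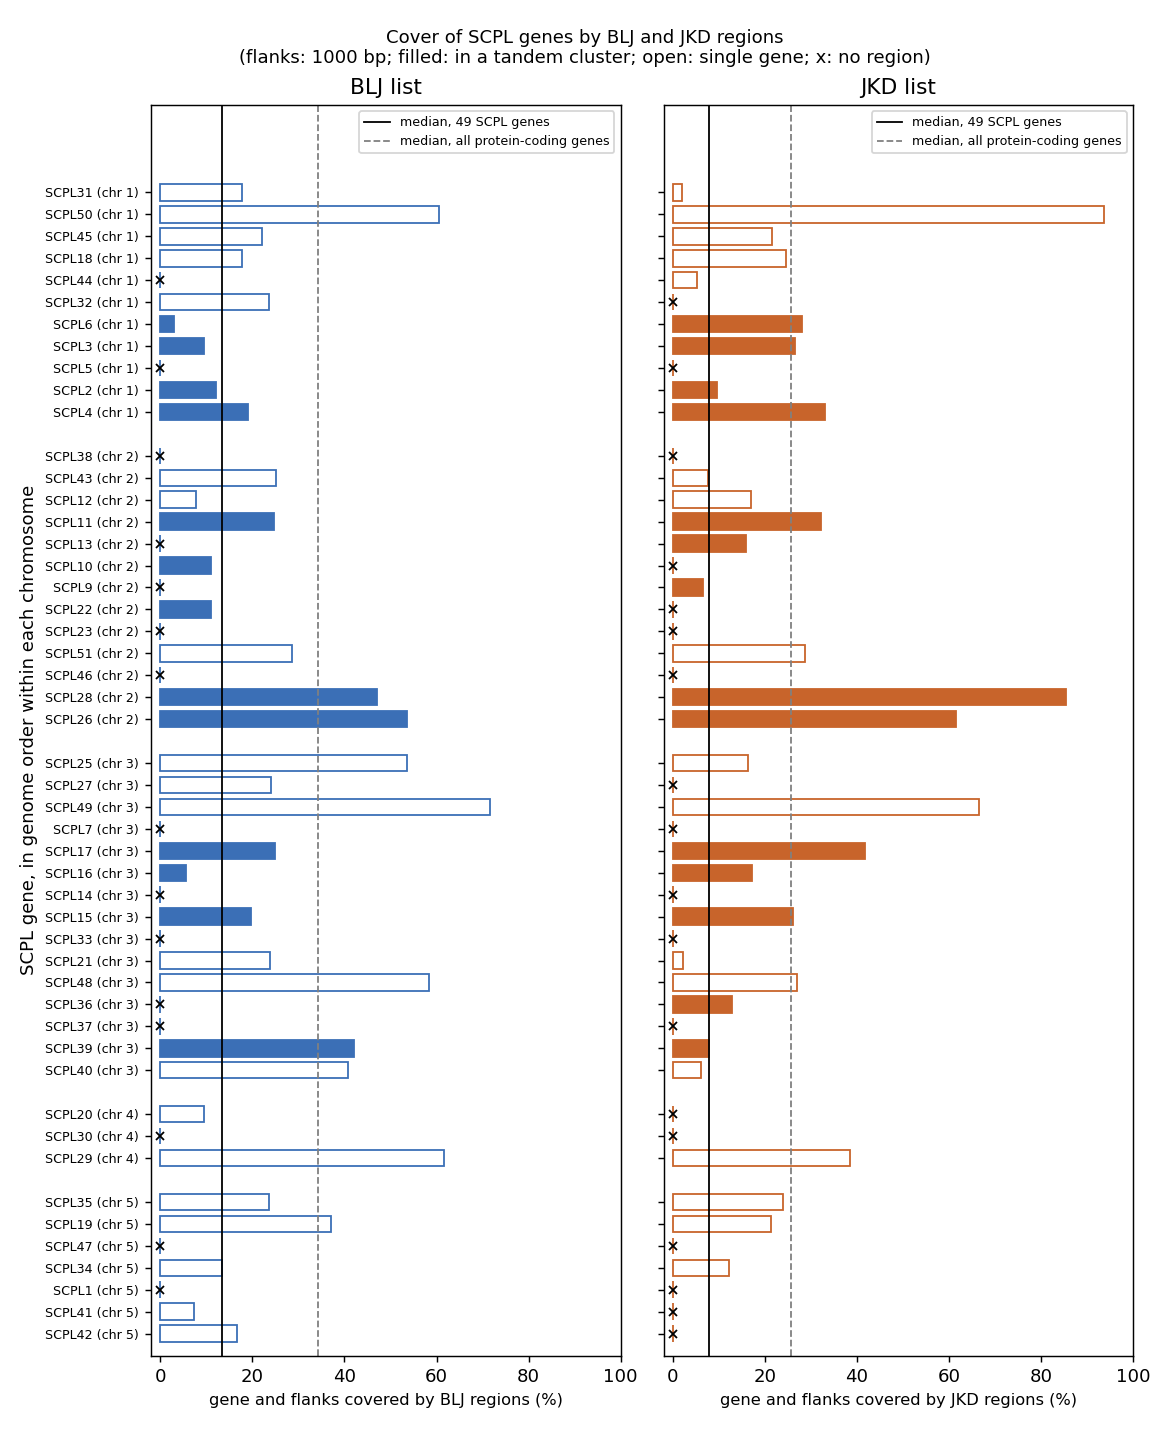
Percent of each SCPL gene with its flanks of 1000 bp covered by BLJ (left) and JKD (right) regions, 1 bar per gene in genome order, with filled bars for genes in tandem clusters and crosses for genes without a region. The solid lines mark the SCPL medians (13.5% and 7.94%) and the dashed lines those of all genes (34.2% and 25.7%), which most SCPL bars do not reach.

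Cover across the ends of the genes was low on both sides of the end. Over both ends of all SCPL genes, the base 500 bp outside the gene was covered by a BLJ region at 15.3% of ends, against 33.9% for genes of like length and 31.0% for all genes. The base 400 bp inside was covered at 24.5% of SCPL ends, against 46.8% and 45.6%. For JKD the values 500 bp outside were 12.2% of SCPL ends, against 30.2% and 27.7%, and 400 bp inside they were 20.4%, against 37.6% and 37.5%. The SCPL profile was lowest at 500 bp outside for JKD and at 100 bp outside for BLJ. At 1000 bp outside, BLJ covered 22.4% of SCPL ends, against 34.1% at like length, and JKD 18.4%, against 29.8%. BLJ cover of SCPL ends rose from 14.3% at 100 bp outside to 24.5% at 400 bp inside, which was no higher than at 3000 bp outside (24.5%). For genes of like length BLJ cover was 32.9% at 3000 bp outside, 34.7% at 100 bp outside and 46.8% at 400 bp inside. The gene table used here gives no strand, so the start and the end of transcription are not told apart.

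**Figure D3:**
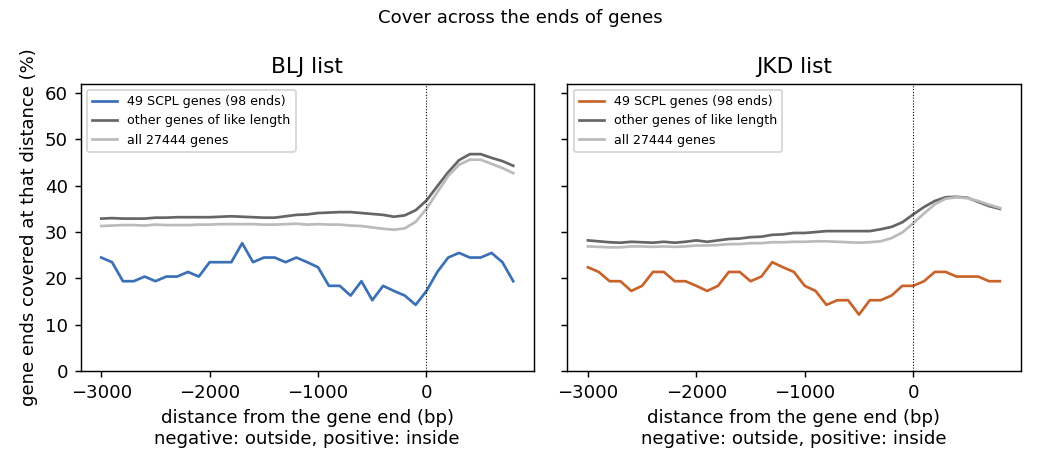
Percent of gene ends covered by a BLJ (left) or JKD (right) region at each distance in bp from the end, outside (negative) to inside (positive), for SCPL genes, other genes of like length and all genes. The SCPL lines run below the other lines throughout, with 24.5% against 46.8% and 45.6% for BLJ at 400 bp inside.

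The gap was not the same at every level of reproducibility. Where the IDR was limited to 0.1, BLJ regions lay near 17 SCPL genes (34.7%, against 32.1% of all genes and 37.6% of genes of like length), so the family stood close to the rest. A JKD region of that IDR lay near 16 (32.7%, against 40.8% and 46.7%). Limited to 0.05, the counts were 6 for BLJ (12.2%, against 11.2% and 13.4%) and 8 for JKD (16.3%, against 22.2% and 25.2%). In the denser 50% of each list, BLJ regions lay near 27 SCPL genes (55.1%, against 57.7% and 64.8%) and JKD regions near 18 (36.7%, against 53.3% and 59.7%). Density here is the average log2 value over the replicates, ranked within a list and given below as a percentile. Regions of both factors lay near 8 SCPL genes at the IDR limit of 0.1 (16.3%, against 17.5% and 21.1%). At 0.05 they lay near 1 (2.04%, against 3.78% and 4.39%), and in the denser lists near 16 (32.7%, against 42.2% and 48.4%). Neither factor had a region within the IDR limit of 0.1 near 24 SCPL genes (49.0%, against 44.5% and 36.7%). The counts were 36 at 0.05 (73.5%, against 70.4% and 65.8%) and 20 in the denser lists (40.8%, against 31.3% and 23.9%). With these limits the BLJ share of SCPL genes was within 3 percentage points of the share of all genes, and the JKD share stayed below it.

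Tandem copies were counted once as well. SCPL genes with at most 1 other protein-coding gene between neighbours were joined, which gave 6 clusters holding 20 genes beside 29 single genes, 35 loci in all. BLJ regions lay near at least 1 gene at 27 of the 35 loci, and JKD regions at 22. No matching count over loci of other genes is available at any setting. Joining genes whose ends lay at most 10000 bp apart gave 34 loci, 26 with a BLJ region and 22 with a JKD region. With equal weight for each locus, the average share of genes near a region was 71.1% for BLJ (88.7% for genes of like length) and 59.9% for JKD (84.9%). BLJ regions lay near 21 of 29 single genes and JKD regions near 17, where the shares at like length were 88.8% and 85.0%. Of the 20 genes in clusters the counts were 13 and 14, with like-length shares of 88.3% and 84.6%.

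The 5 genes SCPL6, SCPL3, SCPL5, SCPL2 and SCPL4 lie next to each other over 16.2 kb of chromosome 1. Regions covered 6.60% of this stretch in the BLJ list and 15.1% in the JKD list, where the lists cover 26.6% and 22.6% of the genome up to the last gene of each chromosome. SCPL2 held the highest BLJ density rank of the family, with densities of 2.47 and 1.82 (27560943 to 27561318, percentile 98.4, IDR 0.0724). A second BLJ region in SCPL2, only 244 bp wide (27561957 to 27562200), had densities of 2.36 and 1.69 (percentile 97.1) and ended 240 bp from SCPL4. The JKD list had neither of these regions. Its region in SCPL4 (27563148 to 27564346, densities 1.07 and 1.50) ranked at percentile 45.4 and lay 511 bp from SCPL2. SCPL3 had separate regions of both factors that do not touch, BLJ at 27553906 to 27554351 (densities 1.67 and 1.24) and JKD at 27552207 to 27553446 (1.12 and 1.61). That JKD region also reached 311 bp into SCPL6. Beside SCPL6, regions of both factors lay over its neighbour KTI1, a trypsin inhibitor gene, and stopped short of SCPL6. The BLJ region (27543780 to 27548182, densities 1.71 and 1.69, IDR 0.249) ended 838 bp away and the JKD region (27545814 to 27548321, 1.28 and 1.91, percentile 95.1) ended 699 bp away. That JKD region had the lowest IDR near any SCPL gene in that list, 0.00912. SCPL5, in the middle of the row, had no region of either factor, the nearest being 1816 bp (BLJ) and 2721 bp (JKD) away.

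A second cluster, on chromosome 2, holds acyltransferases of sinapate ester metabolism. It comprises SCPL11, SCPL13, SCPL10 and SCPL9 over 27.9 kb, with SNG1 between SCPL13 and SCPL10. SNG1, the enzyme that passes sinapate to malate, is also known as SCPL8 and is no member by symbol. BLJ regions covered 10.2% and JKD regions 10.4% of this stretch. SCPL11 had regions of both factors in the gene and on its left side. The region on the left ranked high for both, with BLJ densities of 1.93 and 1.71 (9773653 to 9774230, percentile 92.4) and JKD densities of 1.14 and 1.89 (9773593 to 9774236, percentile 89.3). SCPL13 had a JKD region inside the gene (9778781 to 9779813, densities 1.24 and 1.72, percentile 88.6), and the nearest BLJ region lay 3057 bp away. SCPL10, which uses anthocyanin as an acceptor, had a BLJ region at its edge (9791742 to 9792424, densities 1.36 and 1.43, percentile 25.6), and the nearest JKD region lay 1565 bp away, at SNG1. SCPL9, which passes sinapate between sinapoylglucose molecules, had a JKD region alone (9802175 to 9802562, densities 1.12 and 1.38, percentile 36.2). SNG1 itself was overlapped by regions of both, BLJ at 9789269 to 9790481 (densities 1.68 and 1.66, percentile 81.7) and JKD at 9789728 to 9790600 (1.30 and 1.72, percentile 91.3, IDR 0.0177). SCPL12 lies apart on the same chromosome. Its only BLJ region (9751153 to 9753092, densities 1.43 and 1.31) lay 538 bp away and ranked at percentile 20.3, the lowest of the strongest BLJ regions in the family.

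The third row, SCPL17, SCPL16, SCPL14 and SCPL15, spans 13.8 kb of chromosome 3 with 1 other gene between. BLJ regions covered 12.1% and JKD regions 23.4% of it. SCPL17, an acyltransferase that adds benzoyl and sinapoyl groups to glucosinolates in seeds, was overlapped by regions of both factors that shared 562 bp. The BLJ region spanned 3892948 to 3893533 (densities 1.95 and 1.44, percentile 82.0) and the JKD region 3892916 to 3893509 (1.17 and 1.68, percentile 81.7). SCPL15 had the highest JKD density rank of the family, 1.29 and 1.94 (3904694 to 3905923, percentile 95.7, IDR 0.0101), in a region that overlaps 299 bp of the gene and reaches TGA6, a bZIP transcription factor gene next to it. The BLJ region there (3904675 to 3905601, 1.98 and 1.23) had an IDR of 0.286. SCPL16 had JKD regions inside the gene at low density (percentiles 25.2 and 22.5), while its BLJ region lay 729 bp away in the gene between SCPL17 and SCPL16. SCPL14 had no region of either list.

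**Figure D4:**
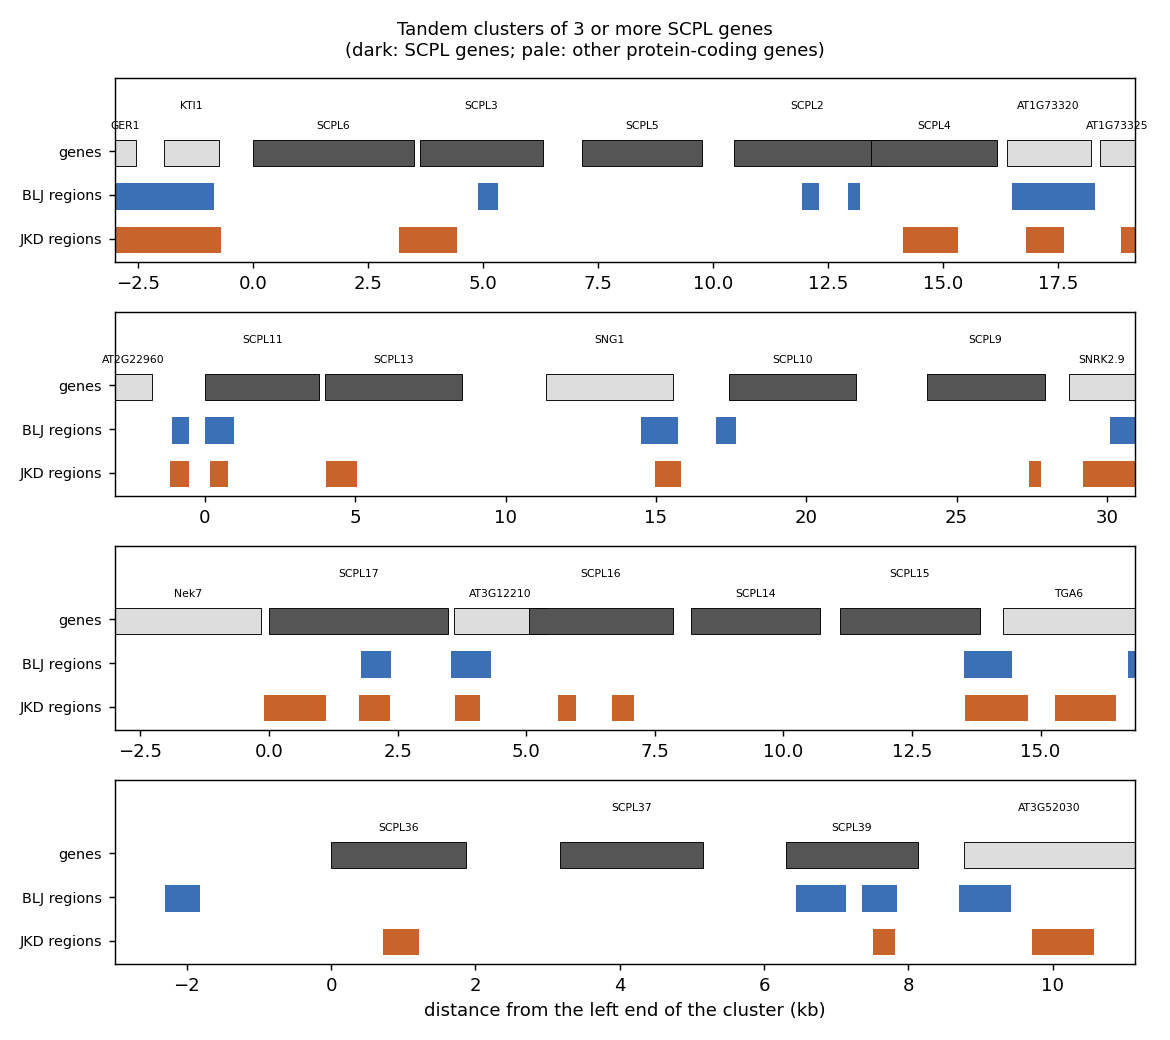
Maps of the 4 tandem clusters of 3 or more SCPL genes, by distance in kb from the left end of each, with SCPL genes dark, other genes pale, BLJ regions blue and JKD regions orange. In the rows of 5, 4, 4 and 3 genes, SCPL5, SCPL14 and SCPL37 have no region of either factor within 1000 bp, and SCPL9, SCPL13 and SCPL36 have a JKD region alone.

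Of the 6 clusters, SCPL28 and SCPL26 had the most cover by both lists, and SCPL22 and SCPL23 had none by JKD regions. SCPL28 and SCPL26 lie side by side on chromosome 2 over 6.26 kb, of which BLJ regions covered 58.9% and JKD regions 76.4%. A BLJ region in SCPL28 (15035538 to 15036781) had densities of 1.76 and 2.47 (percentile 98.1, IDR 0.0873), and lay 797 bp from SCPL26. A JKD region of 3857 bp (15033402 to 15037258, densities 1.23 and 1.64, percentile 83.9, IDR 0.0279) covered all of SCPL28. SCPL22 and SCPL23, also on chromosome 2, had a single BLJ region in SCPL22 between them (10212796 to 10213530) and no JKD region. Its densities were 2.31 and 1.17, above and below the list medians of 1.60 and 1.38, and its IDR was 0.261. On chromosome 3, SCPL36 had a JKD region alone, SCPL39 regions of both, and SCPL37 none.

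Among the single genes, SCPL49, SCPL29, SCPL50 and SCPL48 had the most BLJ cover. SCPL49, listed as CARBOXYPEPTIDASE Y after the vacuolar enzyme of yeast, was covered with its flanks to 71.6% by BLJ regions and 66.6% by JKD regions. Its BLJ regions were of middle to low density, at percentiles 50.4, 42.4 and 1.92, the strongest at 3235275 to 3236489 with 1.75 and 1.28. The strongest JKD region had 1.12 and 1.60 (3237694 to 3239620, percentile 67.8). SCPL48 was covered by a BLJ region of 2828 bp over nearly its whole length (16466189 to 16469016, densities 1.63 and 1.47), and a JKD region of 1137 bp lay within the same gene. SCPL50 was covered along its full length by a JKD region of 4933 bp that also takes in its neighbours (5167694 to 5172626, densities 1.14 and 1.64), and with its flanks to 93.6%, the highest JKD cover in the family. The BLJ list had 2 regions there and 60.6% cover. SCPL29 had 61.6% cover by BLJ and 38.4% by JKD regions. BRS1, known also as SCPL24, is a secreted carboxypeptidase whose excess suppresses a weak brassinosteroid receptor mutant, and is no member by symbol. Regions of both factors lay inside it, with percentiles of 16.5 (BLJ, densities 1.37 and 1.34) and 55.0 (JKD, 1.14 and 1.46). With SNG1 and BRS1 counted in, BLJ regions lay near 36 of 51 genes and JKD regions near 33.

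High density at single genes came from 1 replicate value in some cases and from both in others. SCPL25 had BLJ densities of 3.24 and 1.34 on chromosome 3 (372506 to 373800, percentile 98.1, IDR 0.234), the highest first-listed value near an SCPL gene. In the BLJ list as a whole 95% of first-listed values were at or below 2.10. Beside the same gene lay the BLJ region of lowest IDR in the family, 0.0159 (370063 to 370482), with densities of only 1.32 and 1.08 and a percentile of 0.31. SCPL34 had the opposite tilt, with BLJ densities of 1.45 and 2.17 (7810616 to 7811486 on chromosome 5, percentile 90.2) and a JKD region within the same stretch (7810685 to 7811466, 1.11 and 1.65, percentile 72.2). SCPL51 had a JKD region across its right end (11888386 to 11889988 on chromosome 2, densities 1.31 and 1.66, IDR 0.0246), and the BLJ region overlapping it stopped 155 bp from the gene (1.87 and 1.30). At SCPL35, regions of both factors lay across the left end of the gene on chromosome 5, BLJ at 2656280 to 2657700 (1.93 and 1.58, percentile 88.7, IDR 0.0443) and JKD at 2656901 to 2657685 (1.24 and 1.53, percentile 77.0). SCPL18 on chromosome 1 had regions of both across its right end, BLJ with 1.79 and 1.56 (12164340 to 12165156, IDR 0.0288) and JKD with 1.22 and 1.40 (12164065 to 12165195). SCPL43 had regions of both factors inside the gene, overlapping by 224 bp. At SCPL45 both factors had regions over the same parts of the gene, of low rank (percentiles 41.4 and 21.5 for the strongest of BLJ and JKD). SCPL40 had BLJ regions inside the gene (strongest at percentile 45.3), and its JKD region lay 711 bp away. At SCPL21 the strongest BLJ region had 2.17 and 1.31 (9215947 to 9217586 on chromosome 3, IDR 0.266) and lay 245 bp from the gene, while a weaker one lay inside it (percentile 33.3). At SCPL31 a BLJ region reached 8 bp into the gene (percentile 65.6) and the JKD region lay outside it.

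SCPL19, the choline sinapoyltransferase of seeds also known as SNG2, had regions of high rank that lay mostly in its neighbours. The BLJ region (2983619 to 2988329 on chromosome 5, densities 1.67 and 2.00, percentile 92.7) and the JKD region (2983626 to 2988339, 1.16 and 1.97, percentile 92.3, IDR 0.0259) shared 4704 bp, and reached only 16 bp and 26 bp into SCPL19. A separate BLJ region lay inside the gene (2988704 to 2989478, densities 1.87 and 1.32, percentile 66.4). Regions centred outside the family were a minority. Of 60 distinct BLJ regions near SCPL genes, 32 had their midpoint in a member, 20 in another protein-coding gene and 8 between genes. Of 44 distinct JKD regions the counts were 27, 9 and 8. With regions centred in another gene left out, for every gene by the same rule, BLJ regions lay near 28 SCPL genes (57.1%, against 65.9% of all genes and 78.5% of genes of like length). JKD regions then lay near 27 (55.1%, against 61.8% and 73.2%). Regions of both lay near 18 (36.7%, against 51.6% and 64.7%), and no region lay near 12 (24.5%, against 23.9% and 13.1%), a share close to that of all genes.

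The genes near 1 factor alone had narrow or weak regions for the most part. A BLJ region and no JKD region lay near 7 genes (14.3%, against 9.57% of all genes and 7.94% of genes of like length). These were SCPL32, SCPL10, SCPL22, SCPL27, SCPL20, SCPL41 and SCPL42. SCPL42 had the most reproducible of these (16887599 to 16888165 on chromosome 5, densities 1.71 and 1.57, IDR 0.0191). SCPL41, close by, had densities of 1.75 and 1.51 over 433 bp (16881728 to 16882160). SCPL27 had 1.90 and 1.34 (2553616 to 2554633 on chromosome 3, IDR 0.261), SCPL32 had 1.58 and 1.41 in a region centred in its neighbour TPS04 (22527939 to 22529116 on chromosome 1), and SCPL20 had 1.56 and 1.21 (7551258 to 7551742 on chromosome 4, percentile 21.2). A JKD region and no BLJ region lay near 4 genes (8.16%, against 5.60% and 4.16%): SCPL44, SCPL13, SCPL9 and SCPL36. The JKD region in SCPL44 was 292 bp wide, with densities of 0.998 and 1.64 and an IDR of 0.305 (16566435 to 16566726 on chromosome 1), and the nearest BLJ region lay 10071 bp away. SCPL36 had 1.09 and 1.48 (19293733 to 19294227, IDR 0.223). A difference between the lists at a gene is a difference in what passed the authors' calling, and the density of the other factor below that limit is not known.

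No region of either list lay near SCPL1, SCPL5, SCPL7, SCPL14, SCPL23, SCPL30, SCPL33, SCPL37, SCPL38, SCPL46 and SCPL47. These 11 genes were of ordinary length for the family (median 3029 bp) and fell at 11 different loci on all 5 chromosomes. With 2000 bp on either side, 4 of them still had no region (8.16% of SCPL genes, against 9.21% of all genes and 4.70% of genes of like length): SCPL33, SCPL38, SCPL46 and SCPL47. SCPL38 on chromosome 2 was farthest from the JKD list, with 10485 bp to the nearest region and 6229 bp to the nearest BLJ region. SCPL47 on chromosome 5 lay 5173 bp from a BLJ and 8586 bp from a JKD region, SCPL33 5901 bp and 6020 bp, and SCPL46 3401 bp and 3286 bp.

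Cover leaned towards different lists in the lower and upper number ranges of the family. Of the 18 members numbered SCPL1 to SCPL19, BLJ regions lay near 12 (like-length share 89.1%) and JKD regions near 13 (85.3%), and cover by JKD regions was the higher in 11 genes and cover by BLJ regions in 3. Median cover of the gene and flanks was 8.64% by BLJ and 17.0% by JKD regions. Of the 31 members from SCPL20 to SCPL51, BLJ regions lay near 22 (like-length share 88.4%) and JKD regions near 18 (84.6%), and cover by BLJ regions was the higher in 18 and cover by JKD regions in 6, with medians of 22.0% and 5.22%. Of the 6 tandem clusters, where neighbours can share a region, 3 lie in each range. Those of the first range hold 5, 4 and 4 genes, those of the second 2, 2 and 3. Among the 20 genes in clusters, JKD cover was the higher in 12 and BLJ cover in 4. Among the 29 single genes, JKD cover was the higher in 5 and BLJ cover in 17. The lean by number range was not told apart from the lean by clustering. Over all genes, median cover was 34.2% by BLJ and 25.7% by JKD regions, so the lean towards BLJ has the direction of all genes. The share of all genes with the higher cover by either list is not available here, so these counts stand without a background. In the first range 4 genes, and in the second 7, had no region at all. This difference between ranges was noticed in the values and was not tested.

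Where a region was present, its density was ordinary for its list. Over the 34 SCPL genes near a BLJ region, the median percentile of the strongest region was 75.6 (quartiles 55.4 and 87.8), against 68.5 over the 22170 genes near one. Over the 31 near a JKD region it was 68.1 (quartiles 39.2 and 83.9), against 67.4 over 21082 genes. With the second-listed value alone the BLJ median was 63.9, against 69.7, and so lay on the other side of all genes. With the first-listed value alone it was 75.1, against 65.6. For JKD the first-listed value alone gave 60.1, against 66.4, and the second-listed 71.4, against 67.5. The regions near SCPL genes had a median width of 866.5 bp in the BLJ list and 862.0 bp in the JKD list, where the whole lists had 1015 bp and 906 bp.

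**Figure D5:**
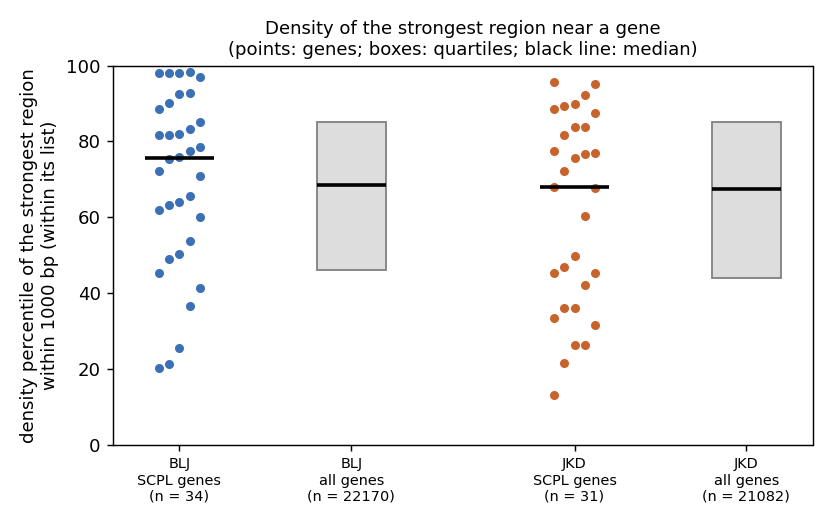
Density percentile, within its list, of the strongest region within 1000 bp of each gene, as points for SCPL genes and as a box of quartiles for all genes near a region, BLJ at left and JKD at right, with medians in black. The medians of SCPL genes are 75.6 (34 genes) and 68.1 (31 genes), and the points span 20.3 to 98.4 and 13.1 to 95.7.

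The pathway that makes and uses the donor sinapoylglucose had higher median cover than all genes. A list of 16 genes of sinapate ester synthesis, drawn up from knowledge of the pathway, runs from phenylalanine ammonia-lyase to the sinapoyltransferases and includes SNG1 and SCPL19 of the SCPL family. All 16 lay near regions of both factors, where 71.2% of all genes and 79.2% of genes of like length did. Median cover of gene and flanks was 61.1% by BLJ and 60.3% by JKD regions, against 34.2% and 25.7% for all genes. No median cover at like length is available for this list. SNG1 and SCPL19 had the least JKD cover of the list, 14.0% and 21.2%. By BLJ cover SNG1 was lowest (19.4%), with PAL1 (34.3%) below SCPL19 (37.0%). CYP98A3, the hydroxylase of the shikimate ester, had densities of 2.04 and 2.05 for BLJ (17059854 to 17060651 on chromosome 2, percentile 97.7) and 1.24 and 1.82 for JKD (17059783 to 17060650, percentile 91.7). At 4CL1, which activates coumarate with coenzyme A, the BLJ region had 1.86 and 2.24 (19159102 to 19161754 on chromosome 1, percentile 97.7) and the JKD region 1.07 and 1.66. PAL2, which starts the pathway by removing ammonia from phenylalanine, had 1.70 and 2.09 for BLJ (19743997 to 19747410 on chromosome 3, percentile 94.9). UGT84A2, which makes sinapoylglucose, ranked at percentile 37.0 for BLJ (densities 1.52 and 1.37) and at 86.6 for JKD (7598185 to 7598948, 1.25 and 1.66, IDR 0.0175). The pathway genes named here did not follow rank alone: ALDH2C4, not described, had percentiles of 94.6 (BLJ) and 88.7 (JKD).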

How the data were processed

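Roots were assayed by ChIP-seq, with 2 libraries for each fusion and 1 control. CASAVA and Bowtie, without versions, and the genome build TAIR9 are named in the submitters' processing notes. How peaks were called, how density was normalized and how the control was used is not given in the sources used here. The authors deposited a single list per factor, made on its pair of replicates. A region carries a density signal per replicate, 2 positive numbers in a cell, and an IDR, per the file headers. The deposited IDR was read as a p-value or q-value would be, up to 0.30 for BLJ and 0.339 for JKD. Widths in the lists match 1-based inclusive coordinates throughout.

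Symbols, lengths and neighbours of genes were taken from NCBI's TAIR10.1 gene table, which has no strand, exons or sequence. TAIR9 and TAIR10 share their nuclear chromosome sequences, and in all 10 pairings of a list with a chromosome, cover rose most sharply between -100 and 100 bp of gene ends. Only coordinates of the deposited TAIR9 regions are printed. Planned values of promoters, proteins and position by strand were not computed. Members, lists and cluster rules were chosen with earlier results of these data known. Named genes are the members of each cluster, the 5 of highest density percentile per factor, members near 1 factor or none, and 4 of the pathway list, and other members were added after their values were seen. Genes of like length are non-members in the same of 10 length classes, weighted as the members. No test was run, since each list pools its replicates. Alternatives changed the distance, the overlap, the IDR limit, the density and the cluster rule. The join, the cover and the clusters were tested on simulated data. Python 3.11.15 with pandas 2.3.3, numpy 2.4.6 and matplotlib 3.10.9 was used.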

Additional observations from a re-analysis of the deposited data

How the results depend on the processing

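No paired analysis was possible because each list pools its replicates, and for the same reason no replicate could be left out. Of 66 values under alternative settings, 47 stayed close to the reported one (within 1.5 times for a count) and 19 moved. Restricting lists can only lower counts of genes near BLJ, JKD or both, and only raise the count near neither. With the IDR limited to 0.1, SCPL genes near a BLJ region numbered 17, near a JKD region 16, near both 8 and near neither 24, with 15 and 13 loci. Limited to 0.05, these were 6, 8, 1 and 36, with 6 and 7 loci. In the denser 50% of each list, 18 genes and 14 loci lay near a JKD region, 16 genes near both and 20 near neither. With 2000 bp on either side, 4 genes lay near neither. The median density percentile moved to 63.9 in the BLJ list by the second-listed value alone, and to 60.1 in the JKD list by the first-listed value alone. Other alternatives (0 or 500 bp, 100 bp of overlap, midpoints, synonyms, clusters by a gap of 10000 bp) gave counts within 1.5 times. Leaving out regions centred in another gene, chosen after seeing the data, did so too, with 28, 27, 18 and 12 genes near BLJ, JKD, both and neither. The SCPL share was below that of genes of like length for both lists under every setting of distance, overlap, IDR and density run. With equal weight for each locus this did not hold for BLJ at an IDR of 0.05, with 17.1% for SCPL loci against 13.4%. Against all genes, the BLJ share was higher at both IDR limits. A gene counted as near no region may hold signal below the authors' calling limit, and unknown depth leaves that limit unknown.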
